A study of Mus musculus with 10 samples.

Results

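Cntnap1 and 7 protein-coding genes that lie beside it on mouse chromosome 11 (Plekhh3, Ezh1, Ramp2, Vps25, Wnk4, Becn1 and Psme3) were followed in liver mRNA, 8 genes of the 24421 listed. Cntnap1 was selected because its mRNA rose with TM5614 in these same livers, so its values are given as a description and without a test. The other 7 were selected by their place near Cntnap1. They address whether the rise was seen along the locus or in Cntnap1 alone. All 8 genes passed the filter on low counts, Cntnap1 with the help of the TM5614 libraries in which it was selected as high.

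RNA sequencing was performed on livers of 10 wild-type male C57BL/6 mice (substrain C57BL/6J per the study's methods), 21 weeks old, with free access to food. The Chow group (5 mice) ate standard chow alone. The TM5614 group (5 mice) ate the same chow with TM5614 mixed in for 10 days, so that they received 20 mg/kg/day. The compound is taken by mouth and inhibits plasminogen activator inhibitor-1. Each mouse gave 1 library.

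Cntnap1 encodes contactin-associated protein 1 (Caspr), a membrane protein of the neurexin superfamily. In myelinated nerve it sits on the axon beside the node of Ranvier, where Caspr and contactin 1 bind neurofascin on the glial loops and form the paranodal junction. It is not a gene by which the liver is known, and the labels name whole liver as the only tissue. Genes that lie side by side can share regulatory DNA or open chromatin, and their RNAs can overlap, so a change at one gene is often set beside those of its neighbours.

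In the GENCODE models on GRCm38 (mm10) Cntnap1 spans chr11:101170523-101190724 on the plus strand. Plekhh3 lies head to head with it, at chr11:101162679-101171351 on the minus strand, and the models overlap by 829 bases, 233 of them exonic in both. All of this overlap comes from a non-coding Cntnap1 transcript. The coding transcript of Cntnap1 starts at 101176041, 4690 bases beyond the end of the Plekhh3 model, and shares no exonic base with Plekhh3. Ezh1, at chr11:101191115-101226463 on the minus strand, meets Cntnap1 tail to tail across a gap of 390 bases. Ramp2 (chr11:101246028-101259546), Vps25 (chr11:101253707-101259549) and Wnk4 (chr11:101260567-101277409) follow on the plus strand, then Becn1 (chr11:101285952-101302286) on the minus strand and Psme3 (chr11:101316213-101323537) on the plus strand. The starts of the 7 neighbours lay 0.8, 55.9, 75.5, 83.2, 90.0, 131.8 and 145.7 kb from that of Cntnap1, in this order. Another gene, Ccr10, lies within the span of Cntnap1 on the other strand without sharing an exon, and it had at most 2 counts in any library.

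The DNA between the starts of the non-coding and the coding Cntnap1 transcripts holds the promoter of Plekhh3. The 250 bases before the start of Plekhh3, from RefSeq on GRCm38.p6 (chr11:101171373-101171622, minus strand, printed 5′ to 3′), are shown because this window lies 850 to 1099 bases downstream of the first base of the Cntnap1 model. The promoter of Ezh1, the neighbour on the other side (chr11:101226464-101226713, minus strand), is shown for comparison. Capitals mark matches to the motifs searched.
Plekhh3: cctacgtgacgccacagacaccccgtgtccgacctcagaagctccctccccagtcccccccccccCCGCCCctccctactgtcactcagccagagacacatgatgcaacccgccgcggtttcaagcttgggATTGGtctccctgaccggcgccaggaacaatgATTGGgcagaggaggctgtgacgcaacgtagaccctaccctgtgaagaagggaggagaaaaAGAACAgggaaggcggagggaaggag
Ezh1: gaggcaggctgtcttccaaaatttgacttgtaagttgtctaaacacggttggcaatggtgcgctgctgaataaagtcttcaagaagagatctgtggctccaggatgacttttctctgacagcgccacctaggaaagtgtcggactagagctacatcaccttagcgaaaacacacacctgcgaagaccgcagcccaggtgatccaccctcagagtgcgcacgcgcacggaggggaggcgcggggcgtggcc

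Promoter windows were found for 5 of the 8 genes (Plekhh3, Ezh1, Vps25, Wnk4 and Psme3), and Cntnap1, Ramp2 and Becn1 had no entry. Both strands were searched for an E-box with the letters CACGTG, for the D-box forms TTATGTAA and TTACGTAA, which are read by clock output factors, and for the cyclic AMP response element TGACGTCA. The search also took in the FOXO site GTAAACA, which is read by a family of fasting-activated factors, the sterol regulatory element TCACCCCAC and the glucocorticoid half-site AGAACA. The general promoter elements searched were the CCAAT box and, for the factor Sp1, the GC box GGGCGG. The Plekhh3 window held a glucocorticoid half-site 26 bases before the start, a pair of CCAAT boxes and a GC box. These motifs are common, in 16.1%, 33.8% and 32.7% of the 32851 promoter windows in the table. The Ezh1 window held none of the motifs. Vps25 held a CCAAT box and a GC box, Wnk4 held 3 GC boxes, and Psme3 held a CCAAT box and an E-box, which 6.02% of windows hold. The D-boxes (0.819% and 0.113%), the cyclic AMP response element (1.55%), the FOXO site (3.17%) and the sterol element (0.496%) were in none of the 5 windows. The window of G6pc, a gene farther along the chromosome that is described below, was searched as well. It held the letters TTACGTAA, searched here as a D-box form, 162 bases before the start, and CCAAT boxes. Whether other factors read these letters was not examined. A match says only that these letters are there.

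Total counts ran from 6398335 to 10874955 a library, the lowest and highest both in the Chow group (replicates 4 and 2). All 9 hepatocyte markers measured were expressed, with a summed level of 104000 to 132000 CPM (counts scaled to a common library size). Chow replicate 2 had the lowest mean correlation with its own group (0.927, against 0.965 to 0.970 in the other Chow libraries). Chow replicate 5 held mRNAs of neurons that were at or near 0 elsewhere, and TM5614 replicate 2 held skeletal muscle mRNAs, so values without these libraries are given below. Of the 11092 genes tested, 499 passed an adjusted p of 0.05 in edgeR (4.50%). Of these 192 were higher with TM5614 (1.73%), and the median log2 fold change over all genes was 0.01.

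Cntnap1 was barely expressed in the Chow livers. Its levels there were 1.09, 0.772, 1.67, 2.85 and 1.93 CPM in replicates 1 to 5, from 8 to 21 counts. With TM5614 they were 7.18, 6.10, 15.1, 11.2 and 12.6 CPM, from 47 to 132 counts. The groups did not overlap: the lowest TM5614 library was above the highest Chow library. Within the TM5614 group replicates 1 and 2 were low and replicates 3, 4 and 5 were high. The mean was 1.66 ± 0.807 CPM (SD, n = 5) in Chow and 10.4 ± 3.77 CPM (SD, n = 5) in TM5614 livers. The log2 fold change was 2.69 with an SE of 0.34, or 6.44-fold, with a 95% interval from 1.94 to 3.44. The gene was selected on this contrast, so neither the separation nor the interval is a test of it.

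**Figure D1:**
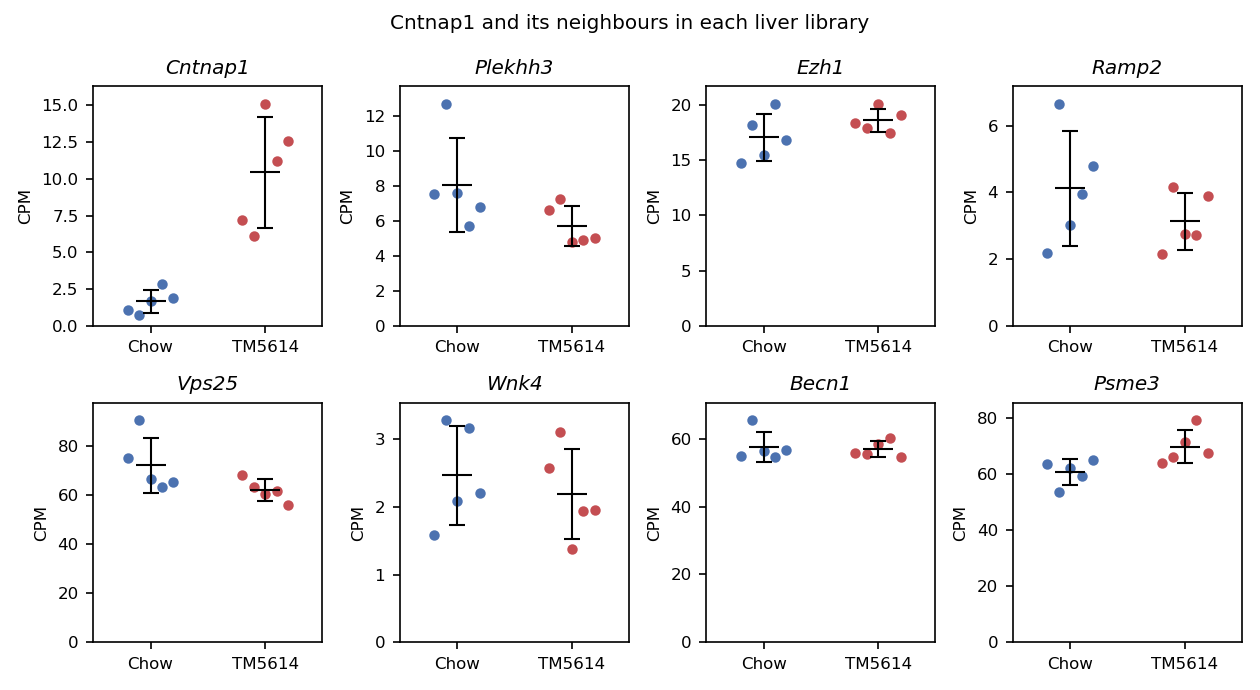
Level of each of the 8 genes in CPM (linear axis from 0) in the 5 Chow (blue) and 5 TM5614 (red) libraries, in replicate order from left to right within a group; black marks are the mean and SD. In Cntnap1 the lowest TM5614 library (6.10 CPM) sits above the highest Chow library (2.85 CPM), while the groups overlap in each of the 7 neighbours.

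None of the 7 neighbours passed the threshold, against 4.50% of all genes. By edgeR's quasi-likelihood test with Benjamini-Hochberg adjustment over all genes, the lowest adjusted p was 0.23, and 1 of the 7 (Plekhh3) had an unadjusted p under 0.05. DESeq2 and limma-voom likewise called 0 of 7, each with 1 at an unadjusted p under 0.05. None of the 7 had groups that did not overlap, against 8.93% of all genes. Their median log2 fold change was -0.17, with 5 estimates below 0 and 2 above. This median was -0.045 without Chow replicate 2 and -0.044 with GC and length offsets in the fit. The 95% intervals of the 7 ran from -1.05 at the lowest to 0.44 at the highest. Every bound therefore lay below the Cntnap1 estimate, but smaller changes in either direction are not shown to be absent.

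Plekhh3, a pleckstrin homology, MyTH4 and FERM domain protein, is the neighbour that overlaps Cntnap1. It measured 7.52, 12.7, 7.62, 5.70 and 6.81 CPM in Chow replicates 1 to 5 and 6.61, 7.27, 4.82, 4.91 and 5.03 CPM in TM5614 replicates 1 to 5. The Chow group was topped by replicate 2, which stood apart from the rest, and the groups overlapped. Its log2 fold change was -0.51 with an SE of 0.23 (edgeR adjusted p = 0.23), opposite in sign to that of Cntnap1. Without Chow replicate 2 it was -0.29 (adjusted p = 0.32), and with GC and length offsets in the fit -0.25 (adjusted p = 0.323). Over the alternatives its adjusted p ran from 0.122 to 0.423. Whether the study's counting used strand is not stated in the sources used here, so reads in the shared exonic bases cannot be assigned to one gene with certainty. The related genes Plekhh1 and Plekhh2 had 1 tested member, with a log2 fold change of 0.78 that did not pass.

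Ezh1 encodes a histone H3 lysine 27 methyltransferase, the alternative catalytic subunit of Polycomb repressive complex 2. It measured 14.7, 18.2, 15.5, 20.1 and 16.8 CPM in the Chow libraries and 18.4, 17.9, 20.1, 17.5 and 19.1 CPM in the TM5614 libraries. The TM5614 values fell inside the Chow range. The log2 fold change was 0.13 (edgeR adjusted p = 0.56). Of 9 other tested genes of the complex and its accessory proteins, 0 passed, with a median of -0.01; Ezh2 was at -0.11 (adjusted p = 0.781).

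Ramp2 encodes a receptor activity-modifying protein that, with the calcitonin receptor-like receptor, makes the adrenomedullin receptor of vessels. It measured 2.18, 6.66, 3.03, 3.96 and 4.78 CPM in Chow and 2.15, 4.15, 2.75, 2.74 and 3.90 CPM in TM5614 livers. The groups overlapped over most of their range, and the log2 fold change was -0.40 (edgeR adjusted p = 0.471). Its exons share 1103 bases with Vps25 on the same strand, none of them coding in both, so the counts of these genes are uncertain by the reads that fall there. Of 3 tested partners 0 passed, with Calcrl, the receptor itself, at 0.51 (adjusted p = 0.347). Of 12 endothelial markers, all tested, 0 passed; their summed level was 165 to 272 CPM in Chow and 168 to 269 CPM in TM5614 livers. In whole tissue, fewer cells of a type and less RNA per cell cannot be told apart.

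Vps25 encodes a subunit of ESCRT-II, which sorts ubiquitylated membrane proteins into multivesicular bodies. It measured 75.3, 90.7, 66.8, 63.4 and 65.3 CPM in Chow and 68.5, 63.5, 60.4, 61.9 and 56.2 CPM in TM5614 livers. Chow replicate 2 was again the highest, and the groups overlapped. The log2 fold change was -0.22 (edgeR adjusted p = 0.321). Of 12 other genes of ESCRT-II, ESCRT-III and their cofactors, all tested, 0 passed, and their median was -0.04.

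Wnk4 encodes a kinase that controls sodium and potassium chloride cotransporters. It was low in every library, at 1.58, 3.28, 2.09, 3.17 and 2.21 CPM in Chow and 2.58, 3.11, 1.38, 1.94 and 1.95 CPM in TM5614 livers. With 12 to 34 counts a library its interval was wide, from -0.78 to 0.44 around a log2 fold change of -0.17 (edgeR adjusted p = 0.746). Of 11 tested genes of the WNK pathway 1 passed, against 4.50% of all genes, and whether the pathway exceeds that share was not tested. That gene, Nedd4l, a ubiquitin ligase that controls ion channels and transporters, was 29.4 ± 7.67 CPM (SD, n = 5) in Chow and 69.1 ± 14.4 CPM (SD, n = 5) in TM5614 livers. Its log2 fold change was 1.23 (edgeR adjusted p = 0.00406), and it lies on another chromosome. It was higher in 5 of 5 TM5614 libraries than in any Chow library. The groups did not overlap in 8.93% of all genes.

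Becn1 encodes Beclin 1, the regulatory subunit of the lipid kinase complex that starts autophagosome formation. It measured 54.8, 65.4, 56.4, 54.7 and 56.7 CPM in Chow and 55.9, 55.4, 58.4, 60.3 and 54.6 CPM in TM5614 livers. Apart from Chow replicate 2 all libraries lay between 54.6 and 60.3 CPM. The log2 fold change was -0.02 (edgeR adjusted p = 0.933), and its sign was positive without that library (0.025). Its models share 3104 exonic bases with Cntd1 on the other strand, which had at most 7 counts in a library. Of 13 tested genes of the Beclin 1 and autophagy-initiation complexes 0 passed, with a median of 0.04.

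Psme3 encodes PA28 gamma, a nuclear activator cap of the proteasome, and lies farthest from Cntnap1 of the 7. It measured 63.6, 53.6, 62.1, 59.3 and 65.1 CPM in Chow and 64.0, 66.2, 71.2, 79.1 and 67.6 CPM in TM5614 livers. Of the TM5614 values 4 of 5 were above the highest Chow value. The log2 fold change of 0.20 did not pass (edgeR adjusted p = 0.294), and over the alternatives the adjusted p ran from 0.197 to 0.516. Of 18 other proteasome genes, all tested, 0 passed, and their median was -0.06.

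Set against its neighbours in the same library, Cntnap1 was closer to them with TM5614, and their total differed by less than its spread. The 7 neighbours summed to 222 ± 16.5 CPM (SD, n = 5) in Chow and 218 ± 7.11 CPM (SD, n = 5) in TM5614 livers. On the log2 CPM scale Cntnap1 lay below the mean of the neighbours by -3.46, -4.40, -3.03, -2.44 and -2.95 in Chow replicates 1 to 5. The differences were -1.06, -1.45, 0.10, -0.40 and -0.25 in TM5614 replicates 1 to 5. The gap was narrower in every TM5614 library than in any Chow library. The ratio of Cntnap1 to Plekhh3, the gene with which it overlaps, was 0.0606 to 0.5 in Chow and 0.839 to 3.14 in TM5614 livers. Cntnap1 was selected on its rise, so the separation of both measures follows from that selection and is not a test.

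The order of the 8 genes was read on the deposited FPKM scale, which divides counts by gene length. In Chow livers the mean levels were 0.306 for Cntnap1, 0.587 for Wnk4, 2.66 for Plekhh3, 4.01 for Ezh1, 4.67 for Ramp2, 22.9 for Psme3, 28.0 for Becn1 and 50.5 FPKM for Vps25. Cntnap1 and Wnk4 overlapped over the libraries, as did Plekhh3 with Ezh1 and Ezh1 with Ramp2. With TM5614 the mean levels were 0.520 for Wnk4, 1.88 for Plekhh3, 1.92 for Cntnap1, 3.55 for Ramp2, 4.36 for Ezh1, 26.2 for Psme3, 27.6 for Becn1 and 43.3 FPKM for Vps25. Cntnap1 was no longer the lowest. In this group it overlapped with both Plekhh3 and Ramp2, and Wnk4 lay apart from Plekhh3. Even after its rise Cntnap1 was a gene of low abundance in liver.

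The wider locus was read over all annotated genes with a start within 500 kb of that of Cntnap1, 48 besides Cntnap1, of which 34 were tested. Of these 2 passed the threshold (5.88%, near the 4.50% of all genes). An unadjusted p under 0.05 was found for 10 of the 34, a larger share than the 2263 of 11092 genes in the whole table. The difference in share was not tested. The groups did not overlap in 3 of the 34, a share near the 8.93% of all genes. These were G6pc, Naglu and Stat5b (log2 fold change 0.33), the last named after its values were seen. The median log2 fold change was -0.18, with 24 estimates below 0. This median was near 0 with the GC and length offsets (-0.01) and -0.06 without Chow replicate 2. Within 200 kb 2 of 16 tested genes passed (12.5%), and within 1 Mb 3 of 47 (6.38%).

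One of the called genes rose. G6pc encodes the catalytic subunit of glucose-6-phosphatase, the last step by which the liver releases glucose, and starts 197.0 kb from Cntnap1 at chr11:101367561. It measured 168, 119, 253, 183 and 217 CPM in Chow and 485, 375, 726, 700 and 566 CPM in TM5614 livers. The groups did not overlap, and the log2 fold change was 1.60 with an SE of 0.22 (edgeR adjusted p = 0.00185). It passed in all 22 alternatives, with adjusted p from 8.49e-10 to 0.00763. Ezh1, Ramp2, Vps25, Wnk4, Becn1 and Psme3, none of which passed, lie between Cntnap1 and G6pc.

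The other called gene fell. Naglu, a lysosomal enzyme that degrades heparan sulfate, starts 100.5 kb to the other side of Cntnap1, at chr11:101070012. It measured 23.3, 42.7, 26.8, 27.1 and 26.1 CPM in Chow and 21.1, 18.4, 15.1, 17.7 and 20.0 CPM in TM5614 livers. The groups did not overlap, and the log2 fold change was -0.66 with an SE of 0.17 (edgeR adjusted p = 0.0478). This call was lost in 13 of 22 alternatives, with adjusted p from 0.00795 to 0.14. Where it was lost the log2 fold change was -0.60 to -0.71. The call was kept at a smaller estimate with the GC and length offsets (-0.43) and without Chow replicate 2 (-0.49). Each of these 8 libraries, left out alone, ended it: Chow replicate 3 (0.0833), 4 (0.08) and 5 (0.0629), and TM5614 replicate 1 (0.071), 2 (0.0936), 3 (0.14), 4 (0.125) and 5 (0.0863). The nearest tested gene on that side that precedes Plekhh3, Tubg1 (gamma-tubulin), lay 50.6 kb away and had a log2 fold change of -0.25 (edgeR adjusted p = 0.423). Without Chow replicate 2 the Tubg1 estimate was -0.08 (edgeR adjusted p = 0.71).

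**Figure D2:**
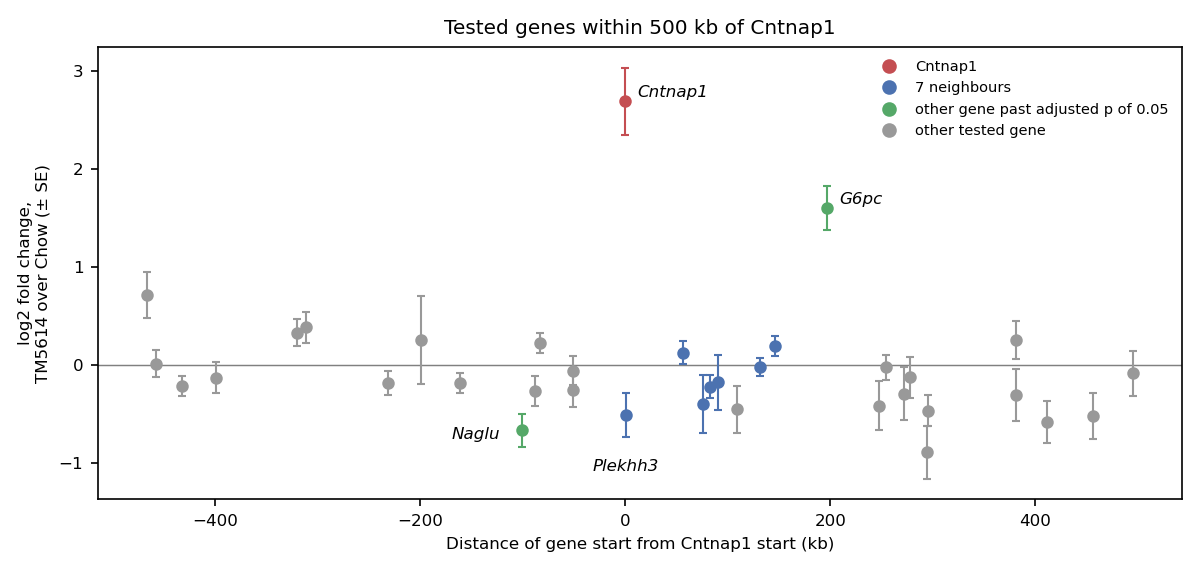
Log2 fold change (TM5614 over Chow) with its SE for each tested gene within 500 kb of Cntnap1, against the distance of its start from that of Cntnap1 in kb. Cntnap1 (red, 2.69) and G6pc (green, 1.60) stand above the rest, Naglu (green, -0.66) passed in the downward direction, and the 7 neighbours (blue) lie between -0.51 and 0.20.

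The genes flanking other genes that rose give a scale for this. Each of the other 191 genes higher with TM5614 was set beside the tested genes whose starts come next on either side, 380 flanking genes in all. Of these 24 were themselves higher (6.32%, against 1.73% of all tested genes), and 21 of the 191 (11%) had at least 1 such flank. The mean log2 fold change of the flanks had a median of 0.07 over these genes, and for Cntnap1, flanked by Tubg1 and Plekhh3, it was -0.38. Without Chow replicate 2 the estimates of Tubg1 and Plekhh3 were -0.08 and -0.29. With the GC and length offsets they were -0.005 and -0.25. The median over the other genes was taken from the main fit only. Clusters of related genes and overlapping models are among the pairs of genes and flanks, and they were not separated.

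The genes whose pattern over the 10 libraries was most like that of Cntnap1 lay elsewhere in the genome, apart from G6pc, which ranked 8 and, with a prior count of 0.5, ranked 12. Likeness was the mean absolute difference of log2 CPM after each gene was centred on its own mean, so a gene must rise by a like amount to score well, and this is a description with no test. The 8 nearest of 11091 genes were Cidec (0.413), Ehhadh (0.431), Lamb3 (0.455), Cgref1 (0.459), Hsph1 (0.502), Lad1 (0.518), Agap2 (0.520) and G6pc (0.530), against a median of 1.25 over all genes. Cidec, a lipid droplet fusion protein, was 4.99 ± 1.30 CPM (SD, n = 5) in Chow and 27.1 ± 8.14 CPM (SD, n = 5) in TM5614 livers. Ehhadh, the bifunctional enzyme of peroxisomal fatty acid oxidation, was 293 ± 111 and 1450 ± 382 CPM (SD, n = 5 each). Lamb3 encodes a laminin chain, Lad1 a basement membrane anchoring filament protein, Hsph1 a heat shock protein and Agap2 an Arf GTPase-activating protein. The groups overlapped in Hsph1 and in no other of the 8, while 8.93% of all genes had groups that did not overlap. The log2 fold changes of the 8 ran from 1.47 for Hsph1 to 2.49 for Cgref1. The 8 were picked for likeness to a gene whose groups do not overlap, so their separation and fold changes largely follow from that choice. The 7 neighbours scored between 1.16 and 1.49, and the best of them, Psme3, ranked 3098.

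**Figure D3:**
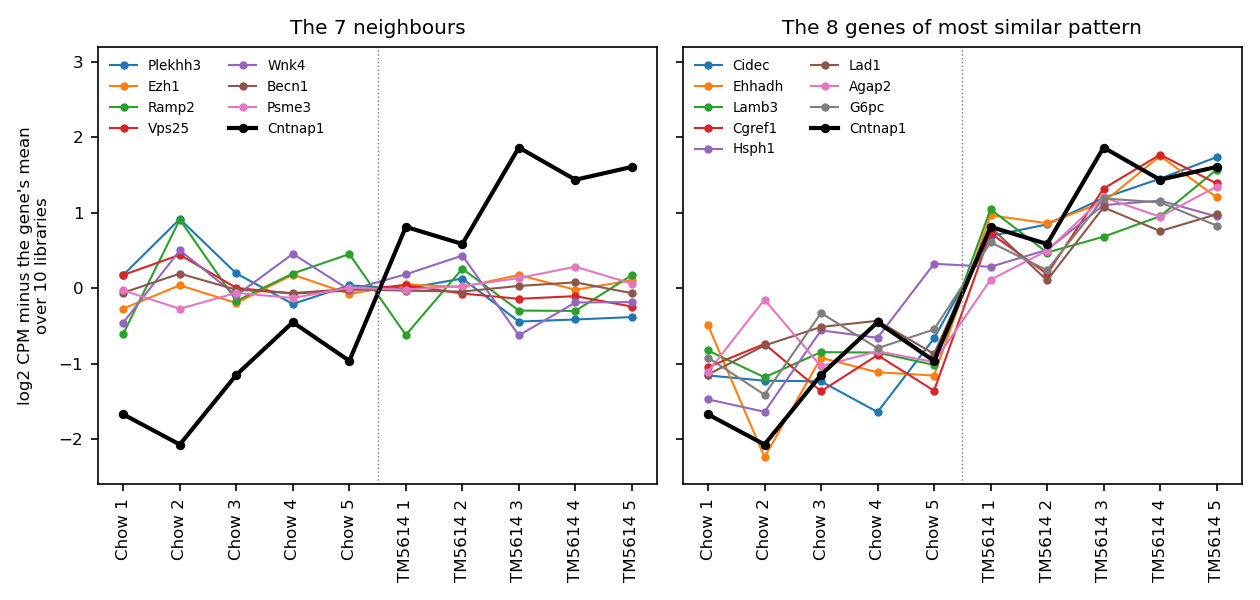
Log2 CPM in each library minus the gene's mean over the 10 libraries, with Chow left and TM5614 right of the dotted line; lines only join the points of 1 gene. Cntnap1 (black) steps up at the line, while the groups overlap in each of the 7 neighbours (left panel), with Plekhh3 and Ramp2 highest in Chow replicate 2. The 8 genes of most similar pattern (right panel) are higher right of the line, with an overlap of the groups in Hsph1.

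No tested partner of Cntnap1 passed. Of 16 listed genes of the paranode and its neighbouring domains 15 were in the table and 6 were tested, with a median log2 fold change of -0.03. The list summed to 150 to 288 CPM in Chow and 239 to 279 CPM in TM5614 livers. Most of it came from Sptan1 and Sptbn1 (spectrins) and Ank3 (an ankyrin), which are not particular to nerve. Contactin 1 (Cntn1), the partner that carries Caspr to the axon surface, had 23 counts in Chow replicate 5 and at most 1 count in any other library. Neurofascin (Nfasc), the glial ligand, had 17 counts in that library and at most 5 in the others. Of the 7 genes of the contactin-associated family Cntnap1 alone passed the filter. It had 8 to 21 counts in Chow and 47 to 132 with TM5614, the group in which it was selected as high. Its passing is therefore not a result about the family. Cntnap3, Cntnap4, Cntnap5a, Cntnap5b and Cntnap5c had at most 3 counts in every library, and Cntnap2 had 10 counts in Chow replicate 5 and 0 in each of the others.

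Few markers of nerve had enough counts to be tested, and none of those passed the threshold in the direction of Cntnap1. Of 14 neuronal markers 1 was tested, Syt1, the calcium sensor of synaptic vesicles, and it fell by 1.20 on the log2 scale (edgeR adjusted p = 0.0108). The summed level of the 14 was 16.8 to 20.0 CPM in Chow replicates 1 to 4, 81.6 CPM in Chow replicate 5 and 8.71 to 11.8 CPM in the TM5614 libraries. Syt1 alone gave 14.3 to 18.4, 30.9 and 6.89 to 10.2 CPM of these sums, in the same order. Outside Chow replicate 5 the sum was thus mostly 1 gene, and its lower level with TM5614 does not show a fall of neuronal mRNAs in general. Tubb3, Stmn2, Th and Snap25 had 83, 83, 54 and 54 counts in Chow replicate 5 and at most 2 in any other library. The library with these neuronal mRNAs had a Cntnap1 level of 1.93 CPM, inside the range of the other Chow libraries. Without it the log2 fold change of Cntnap1 was 2.77 and that of Syt1 -0.94 (edgeR adjusted p = 0.00914).

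Of 13 Schwann cell and myelin markers 5 were tested and 0 passed. Their summed level was 27.4 to 56.9 CPM in Chow and 28.7 to 46.3 CPM in TM5614 livers. The myelin genes Prx and Mag were near the floor of 3 counts, with at most 4 counts of Prx and at most 2 of Mag in any library. The summed skeletal muscle markers (15 genes, 2 tested, 0 passed) reached 5120 CPM in TM5614 replicate 2. The other TM5614 libraries had at most 105 CPM and the Chow libraries at most 37.4 CPM. That library had the lowest Cntnap1 of its group, 6.10 CPM, and without it the log2 fold change was 2.83. With both Chow replicate 5 and TM5614 replicate 2 left out it was 2.91.

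**Figure D4:**
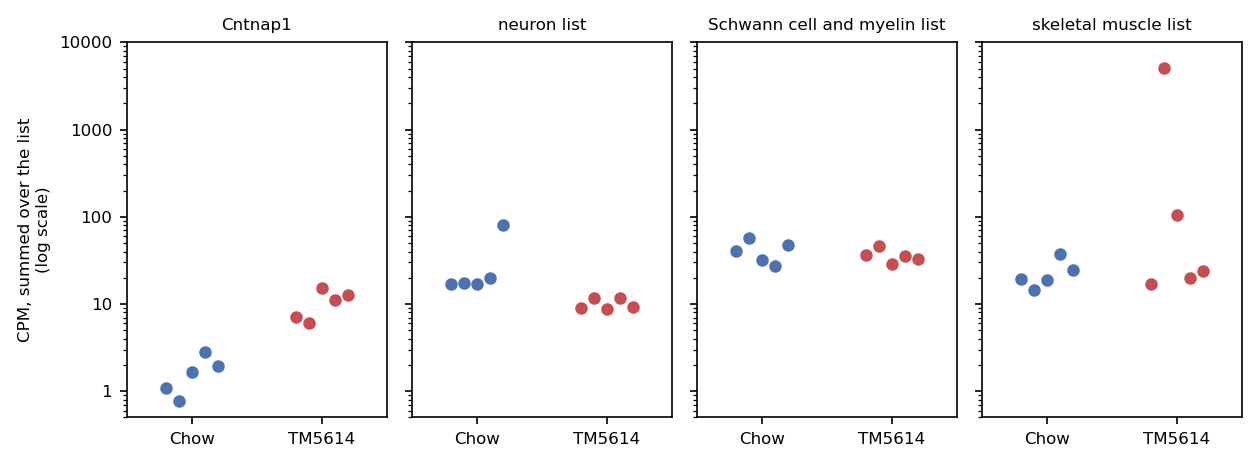
Cntnap1 and the summed levels of the neuron, Schwann cell and myelin, and skeletal muscle lists in each library (CPM, log axis), in replicate order within each group. Chow replicate 5 stands apart in the neuron list (81.6 CPM) and TM5614 replicate 2 in the muscle list (5120 CPM), and neither has the highest Cntnap1 level of its group. Outside Chow replicate 5 most of the neuron sum is Syt1.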

How the data were processed

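The authors aligned single-end reads to mm10 with STAR and ran DESeq2 through RNA Express (Illumina); the labels also name HOMER. The gene annotation and the use of strand are not given in the sources used here. The authors deposited raw counts per gene symbol and FPKM values; their rlog values and their own comparison (fold changes and p-values) were not used. FPKM were used only to order genes by level. Columns were matched to samples by mouse number.

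Counts were tested with edgeR 4.0.16 in R 4.3.3 (filterByExpr, TMM, glmQLFTest, two-sided, no block), with Benjamini-Hochberg adjustment over 11092 genes and a threshold of 0.05. CPM are counts scaled by library total and TMM; log2 CPM used a prior count of 2. P-values weigh the group difference against the spread between mice. Alternatives were DESeq2 1.42.0, limma-voom (3.58.1) with quality weights, other scalings and filters, robust dispersion, a GC and length offset, a replicate block, and each library left out. The tests were run first on simulated counts. No pair of libraries was alike within sampling noise (lowest chi-square per degree of freedom 7.5).

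The members, the gene lists and the tests were chosen with earlier results of these data known. Named genes are the members, window genes past the threshold or next to Cntnap1, list genes past it or defining a list, and the 8 genes of most similar pattern. Gene models are GENCODE M21 and promoters RefSeq, matched by symbol. The labels give no batch or time of collection.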

Additional observations from a re-analysis of the deposited data

Results flagged for a closer look

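In 3 cases 1 library lay far from the other libraries of its group by Dixon's criterion at the 95% level, each time Chow replicate 2. Plekhh3 was 12.7 CPM there and 5.7 to 7.62 CPM in the other Chow libraries. Becn1 was 65.4 CPM there against 54.7 to 56.7 CPM, and Naglu was 42.7 CPM against 23.3 to 27.1 CPM. The criterion was applied to 20 groups of 5 libraries (10 genes in each group), among which chance alone gives about 1 such case. Tubg1 was not among these 10 genes. It was 31.2 CPM in Chow replicate 2 and 17.2 to 20.8 CPM in the other Chow libraries. Chow replicate 2 also had the lowest correlation with its own group (0.927). Its part in these values was not tested.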

How the results depend on the processing

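None of the 7 neighbours passed the threshold in any of the 22 alternatives, where their log2 fold changes ran from -0.68 to 0.24 and the lowest adjusted p was 0.122. Cntnap1 stayed between 2.50 and 2.92 in the 21 alternatives that gave it a value; the filter of at least 10 counts in every library removed it. Becn1, near 0 throughout, changed sign with limma-voom (0.027), library totals alone (0.032) and both replicates 2 left out (0.039). With 1 library left out it ran from -0.045 to 0.025, the positive value without Chow replicate 2. The count of genes passing over the whole table was 499. It became 900 with DESeq2 and 1386 with limma-voom. It was 368 without a filter on low counts and 723 with the GC and length offset. Leaving out 1 library gave 235 to 1031 genes. The libraries that moved the count most were Chow replicate 2 (1031) and 3 (293) and TM5614 replicate 1 (331), 3 (235) and 4 (259). The count of window genes passing was 2. It was 5 with limma-voom (G6pc, Naglu, Dhx58, Rnd2 and Vat1) and 1 (G6pc) with upper-quartile factors, library totals alone or no filter. Leaving out 1 library gave 1 to 2. It was 1, G6pc, without Chow replicate 3 or 4 or TM5614 replicate 1, 3, 4 or 5. Of settings chosen after seeing the data, leaving out both replicates 2 gave 1230 genes in all and 4 in the window. Leaving out Chow replicate 5 with TM5614 replicate 2 gave 289 and 2. The causes were not tested. With a prior count of 0.5, 7 of the 8 genes most like Cntnap1 were shared, and G6pc ranked 12.

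With the replicate block 555 genes passed in all, 1 in the window (G6pc) and 0 of the 7 neighbours, and Cntnap1 was at 2.69. Deviations of same-numbered libraries correlated at 0.03 to 0.32 and not above 0.1 in every pair, so the numbers were not taken as pairs. Depth limits Cntnap1 in Chow, Wnk4 and Ramp2 most.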

Other observations

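Within each group Cntnap1 and Plekhh3 lay at opposite ends of several libraries. Chow replicate 2 had the lowest Cntnap1 (0.772 CPM) and the highest Plekhh3 (12.7 CPM) of its group, and Chow replicate 4 had the highest Cntnap1 (2.85 CPM) and the lowest Plekhh3 (5.7 CPM). Among the TM5614 libraries replicate 2 had the lowest Cntnap1 (6.1 CPM) and the highest Plekhh3 (7.27 CPM), and replicate 3 the highest Cntnap1 (15.1 CPM) and the lowest Plekhh3 (4.82 CPM). These ends were not particular to Plekhh3. Chow replicate 2 was also the highest Chow library of Ramp2 (6.66 CPM), Vps25 (90.7 CPM), Wnk4 (3.28 CPM) and Becn1 (65.4 CPM), but not of Ezh1 or Psme3. TM5614 replicate 2 was also the highest of its group for Ramp2 (4.15 CPM) and Wnk4 (3.11 CPM). It was not the highest for Ezh1, Vps25, Becn1 or Psme3. The pattern was noticed after the values were seen, and with 5 libraries a group no correlation is given.

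Adm, the ligand of the receptor that Ramp2 helps to form, was below the filter, with 3 to 5 counts in Chow replicates 1 to 4, 16 in Chow replicate 5 and 7, 5, 14, 10 and 18 in TM5614 replicates 1 to 5. It was not tested.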
